A study of Mus musculus with 56 samples.

Results

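The 40 genes described here are cell cycle genes, taken by symbol from a list of regulators of G1 and entry into S phase (6 genes), DNA replication genes (14), markers of S to G2 (3) and mitosis genes (17). All 40 were found in the RNA-seq table of the mouse liver series, each on 1 row, among 21888 gene symbols. The table gives FPKM, which scales fragment counts to transcript length and library size, so levels of different genes are per length.

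The series followed mouse livers after removal of miR-122, the most abundant liver microRNA, and 14 livers have RNA-seq. Of these, 11 came from mice with LoxP sites on both sides of the miR-122 precursor, labelled 129Sv/J. Floxed mice that were not injected (day 0), and those taken 21 or 45 days after tail vein injection of rAAV8-Ef1a-Cre, a vector carrying the Cre recombinase, made groups of 3 mice each. Single floxed mice were taken at days 100 and 200, and were treated as 1 group of 2 where a test was made. The remaining 3 livers came from mice with a germline knockout of miR-122, a separate line that was not given the vector as far as the labels say. The Ef1a promoter is active in many cell types, so Cre was not limited to hepatocytes by its promoter. The vector and the loss of miR-122 came together, and no injected mice that kept miR-122 were analysed here, so the effects of the vector, of Cre and of the loss cannot be told apart. The injected floxed mice were adults by the study's account, and exact ages and sexes are not given in the labels. In small RNA libraries of the same group and letter, miR-122 made up 59.2% to 73.3% of reads at day 0, 8.22% to 13.2% at day 21, 0.383% to 1.23% at day 45, 4.46% at day 100 and 19.1% at day 200.

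Most hepatocytes of an adult liver rest outside the cell cycle and can re-enter it. D-type and E-type cyclins drive cells through G1 and release E2F factors, which switch on the genes that load the replicative helicase and make DNA precursors. Later, the MuvB complex, B-Myb and FoxM1 act on genes of G2 and mitosis, whose products build the spindle, hold the chromosomes and cut the cell apart. RNA of these genes is a common readout of how many cells are cycling, and in whole liver fewer cells of a type and less RNA per cell cannot be told apart.

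E2F sites are known from promoters of replication genes, and CCAAT and CHR elements from those of G2 and mitosis genes, and 6 examples are shown because these classes are compared throughout. Each is the stretch of 190 bases just before the transcription start, read 5′ to 3′ on the gene's strand from RefSeq on GRCm38.p6, a later build than the mm9 build of the expression table. Capitals mark the E2F letters TTNNCGC, where NN is any pair of G and C bases, the CHR letters TTTGAA (cell cycle homology region) and the CCAAT letters, on either strand. E2F matches on opposite strands can overlap and then form 1 run of capitals.

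Mcm5: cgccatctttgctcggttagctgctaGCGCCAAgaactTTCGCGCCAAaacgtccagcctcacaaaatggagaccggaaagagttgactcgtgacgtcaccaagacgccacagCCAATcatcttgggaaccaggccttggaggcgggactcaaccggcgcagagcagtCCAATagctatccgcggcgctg
Mcm6: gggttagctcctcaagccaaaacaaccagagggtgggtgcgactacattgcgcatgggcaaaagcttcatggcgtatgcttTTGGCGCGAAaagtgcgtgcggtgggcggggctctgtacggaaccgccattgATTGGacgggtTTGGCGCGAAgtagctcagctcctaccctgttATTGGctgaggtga
Mki67: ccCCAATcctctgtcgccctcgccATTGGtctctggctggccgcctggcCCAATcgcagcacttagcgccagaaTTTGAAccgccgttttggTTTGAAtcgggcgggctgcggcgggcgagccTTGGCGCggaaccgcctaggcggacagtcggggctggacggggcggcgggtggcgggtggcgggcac
Top2a: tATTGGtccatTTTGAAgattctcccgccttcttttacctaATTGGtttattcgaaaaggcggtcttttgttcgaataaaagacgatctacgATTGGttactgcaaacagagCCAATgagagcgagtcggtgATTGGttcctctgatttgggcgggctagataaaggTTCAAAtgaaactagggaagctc
Cdk1: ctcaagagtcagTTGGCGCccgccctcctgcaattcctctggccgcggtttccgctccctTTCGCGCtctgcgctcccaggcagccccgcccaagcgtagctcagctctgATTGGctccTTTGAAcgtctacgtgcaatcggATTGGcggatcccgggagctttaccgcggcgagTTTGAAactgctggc
Cdc20: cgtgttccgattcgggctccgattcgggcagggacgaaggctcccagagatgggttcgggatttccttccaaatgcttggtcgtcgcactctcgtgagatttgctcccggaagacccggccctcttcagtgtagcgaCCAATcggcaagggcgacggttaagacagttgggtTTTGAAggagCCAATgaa

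The stretches of Mcm5 (chr8:75109319-75109508, plus strand) and Mcm6 (chr1:128359706-128359895, minus strand) hold 3 and 4 E2F matches, 2 CCAAT matches each, and no TTTGAA. Those of Mki67 (chr7:135716380-135716569, minus strand) and Top2a (chr11:99024190-99024379, minus strand) hold 2 CHR matches each, with 3 and 5 CCAAT matches. Those of Cdk1 (chr10:69352913-69353102, minus strand) and Cdc20 (chr4:118437344-118437533, minus strand) hold 2 CHR matches and 1, and 2 CCAAT matches each. Cdk1 also holds 2 E2F matches and Mki67 holds 1.

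A promoter entry was found for 31 of the 40 genes, and the motifs were counted in the 250 bases before the start. E2F letters were present in 7 of 12 replication genes (58.3%), 2 of 14 mitosis genes (14.3%) and 9.01% of all 27025 symbols with an entry. TTTGAA was present in 1 of 12 replication genes (8.33%), 5 of 14 mitosis genes (35.7%) and 18.3% of all symbols. CCAAT was common in both classes, in 9 of 12 (75.0%) and 12 of 14 (85.7%), against 37.5% of all symbols. The 9 genes with no entry were Ccnd1, Ccne2, Foxm1, Mcm4, Gins2, Ccna2, Aurkb, Kif20a and Tpx2.

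The libraries differed in ways that touch these genes. Depth, estimated from the steps between low FPKM values, was 0.883 to 1.36 times the geometric mean in the floxed libraries and 0.588 to 0.729 times in the knockout libraries. Day 0 B, day 21 C, day 45 C and knockout C, 1 mouse in each group of 3, had the Y-linked Ddx3y at 10.1 to 20.8 FPKM and Xist at 0.133 or less, and the other 10 had Xist at 12.6 to 71.6. Knockout C stood apart from its group, with a mean correlation of 0.888 with knockouts A and B, while the floxed libraries had 0.958 to 0.970 with theirs. The row of the miR-122 precursor is listed at 0 in every library and checks nothing. The miR-122 targets Aldoa, Tmed3 and Slc35a4, chosen after their values were seen, were higher in each knockout library than in each day 0 library. Aldoa was at 62.1 to 73.1 FPKM at day 0 and 244.9 to 499.8 in knockouts. Ccng1, another known target, was at 12.2 to 13.9 FPKM at day 0 and at 8.27, 9.32 and 33.5 in knockouts A, B and C. Targets chosen by their values do not test the labels. Of 8 hepatocyte markers, 7 had values, with a summed level of 14936 to 32221 FPKM over all libraries, and Alb is listed at 0 in all of them.

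Most of the tested cell cycle genes were higher at day 45 and at days 100 and 200 after Cre than in uninjected mice, while few were at day 21 or in the germline knockout. Levels were compared with limma on log2(FPKM + 1), in the 11354 genes whose mean over all libraries reached 1 FPKM, a filter that 33 of the 40 genes passed. Each ± beside a log2 difference is its SE on that scale, and p-values are limma's, adjusted by Benjamini-Hochberg over all genes of a comparison. At an adjusted p under 0.05, 1 of these 33 was higher at day 21 (Ccnd1), where 6.2% of all tested genes were higher. At day 45, 27 of 33 were higher and none was lower, against 23.7% of all tested genes higher. At days 100 and 200, 29 were higher and none was lower, against 28.4%. In the germline knockout 7 were higher and 1 was lower, against 19.3% and 14.5% of all tested genes. All 4 comparisons use the same 3 day 0 mice, so a chance feature of those mice enters each of them.

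The filter on the mean let 17 genes with a day 0 mean under 1 FPKM into the test. Without 1 of the groups 7 of the 33 would have missed it. The 33 were thus in part chosen by the groups where they were high. The 7 were Aurkb, Bub1b, Nusap1, Plk1, Tpx2 and Uhrf1, through a group after Cre, and E2f8, through day 0. Without the filter, all 40 entered with 17758 genes, and 0, 28, 33 and 2 were higher at day 21, at day 45, at days 100 and 200 and in the knockout, against 3.94%, 22%, 30.3% and 15.4% of all genes. By values alone, with no test, 35 of the 40 genes had each day 45 mouse above each day 0 mouse, where 40% of genes did. For days 100 and 200 this count was 38, against 52.7% with a group of 2. It was 13 at day 21 against 23.9%, and 6 in the knockout against 21.7%. Only E2f8 and Mcm7 had each day 21 mouse below each day 0 mouse (9.17% of genes), and only E2f8 did so in the knockout (10.1%).

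The median log2 difference of the 33 genes was 0.41 at day 21, 1.16 at day 45, 1.41 at days 100 and 200 and 0.55 in the knockout, while the median of all tested genes was 0.06, 0.20, 0.31 and 0.02. The median of all tested genes was thus above 0 at the later times. With each library centred on its median, the calls over all genes moved from 2688 higher and 339 lower to 1644 and 795 at day 45, and from 3227 and 365 to 1785 and 993 at days 100 and 200. Of the cell cycle genes 19 and 20 were then higher, relative to that shift. Every one of them had been called before centring.

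The day 45 count rests in part on replicate B, the highest day 45 mouse for 36 of the 40 genes, and without it 16 of 31 tested genes were higher, against 14.2% of all genes tested in that fit. The count for days 100 and 200 rests on day 100, since day 100 alone gave 30 of 32 genes, against 21.4% of all genes, and day 200 alone gave 1 of 27 (Gins2), against 13.3%. A test of 1 mouse assumes that it varies like the other groups. The day 200 mouse lay above all 3 uninjected mice for 5 of 6 G1 and S entry regulators and 14 of 14 replication genes. It did so for 3 of 3 S to G2 markers and 16 of 17 mitosis genes. Its medians were 2.44 times the day 0 mean for replication and 3.91 times for mitosis genes. Over all genes this was counted only for days 100 and 200 together (52.7%). The share for day 200 alone cannot be smaller, so these counts have no background beside them. Day 100 was the highest of all 14 libraries for 32 of the 40 genes, and day 0 A or B was the lowest for 30.

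**Figure D1:**
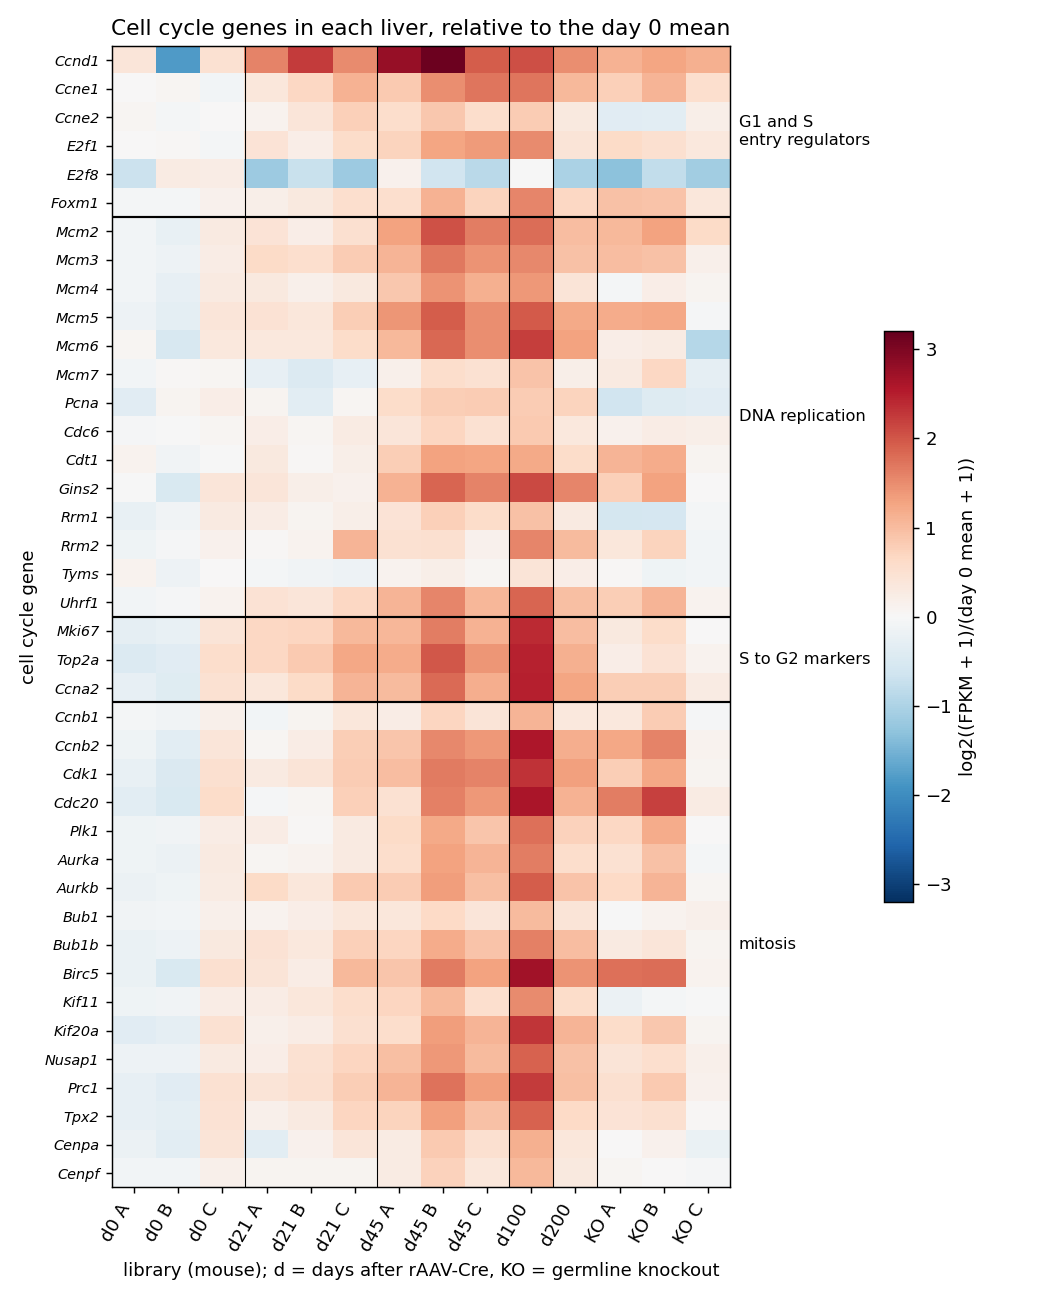
Heat map of the 40 cell cycle genes (rows, by class) in the 14 livers (columns), colored by the log2 ratio of FPKM to the day 0 mean of the gene. The day 45 and day 100 columns are the reddest over most rows, day 0 C is redder than day 0 A and B over the mitosis rows, and E2f8 runs against the others.

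Among the 6 regulators of G1 and S entry, 3 of 4 tested were higher at day 45, against 23.7% of all tested genes. Ccnd1 alone of the 33 tested genes was higher by day 21, a count not above the 6.2% of all tested genes. In every value sentence, groups of 3 are given in the order of replicates A, B and C. Cyclin D1 is the cyclin that growth signals induce in hepatocytes. Ccnd1 was at 41.3, 8.22 and 44.6 FPKM at day 0, 95.7, 153 and 91.0 at day 21, 221, 281 and 122 at day 45, 133 at day 100, 90.4 at day 200 and 69.2, 76.7 and 70.1 in the knockouts. Day 0 B, the uninjected mouse with Y-linked transcripts, lay far below the other 2, and every mouse of the other groups lay above all 3 of them. Ccnd1 was 3.61-fold the day 0 mean at day 21 and 6.65-fold at day 45, with log2 differences of 2.09 ± 0.51, adjusted p = 0.028 and 2.92 ± 0.51, adjusted p = 0.0018. The day 21 call was lost without the filter, with the replicate block, with only the 2 groups in the fit, without day 0 B and without any 1 of the day 21 mice (adjusted p = 0.052 to 0.11). Ccnd1 was also higher at days 100 and 200 (2.09 ± 0.57, adjusted p = 0.015) and in the knockout (1.48 ± 0.51, adjusted p = 0.042). Its knockout call was lost in several fits, among them those without the filter, day 0 B or knockout B.

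Cyclin E1 activates CDK2 at the start of S phase. Ccne1 was at 0.46, 0.516 and 0.35 FPKM at day 0, 0.867, 1.29 and 2.14 at day 21, 1.58, 3.04 and 3.72 at day 45, 3.71 at day 100, 1.97 at day 200 and 1.43, 2.04 and 1.1 in the knockouts. Every mouse of the other groups exceeded the highest uninjected mouse, yet the day 21 test did not pass (0.72 ± 0.26, adjusted p = 0.12). Ccne1 rose at day 45 (1.35 ± 0.26, adjusted p = 0.003), at days 100 and 200 (1.38 ± 0.29, adjusted p = 0.0036) and in the knockout (0.79 ± 0.26, adjusted p = 0.036). The knockout call was lost in several fits, among them those without the filter, day 0 B or knockout B.

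E2f1 encodes an activating E2F. E2f1 was at 1.55, 1.63 and 1.44 FPKM at day 0, 2.47, 1.94 and 2.79 at day 21, 3.16, 5.13 and 5.55 at day 45, 6.21 at day 100, 2.39 at day 200 and 2.86, 2.61 and 2.22 in the knockouts. All mice of the other groups lay above the 3 uninjected mice, and the knockouts lay below each day 45 mouse. It rose at day 45 (1.12 ± 0.25, adjusted p = 0.0059) and at days 100 and 200 (0.96 ± 0.28, adjusted p = 0.019). In the knockout the log2 difference was 0.49 ± 0.25, adjusted p = 0.14, not past the threshold.

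E2f8 encodes a repressing E2F that is known in liver for its part in polyploid hepatocytes, and it was the exception. E2f8 was at 1.01, 2.87 and 2.79 FPKM at day 0, 0.45, 0.953 and 0.452 at day 21, 2.54, 1.12 and 0.781 at day 45, 2.19 at day 100, 0.6 at day 200 and 0.294, 0.857 and 0.501 in the knockouts. Day 0 A was far below day 0 B and C, day 45 overlapped day 0, and each knockout mouse lay below each uninjected mouse. E2f8 was lower in the knockout (-1.01 ± 0.33, adjusted p = 0.036), a call lost without the filter, with only the 2 groups, in libraries with Xist and without day 0 B, day 0 C, knockout A or knockout B (adjusted p = 0.055 to 0.12). Its log2 differences of -0.95 at day 21 and -0.38 at day 45 were not past the threshold (adjusted p of limma = 0.11 and 0.46).

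The other 2 regulators were too low to be tested with the filter. Foxm1, which drives genes of G2 and mitosis, ran from 0.0720 to 0.235 FPKM at day 0, 0.630 to 1.43 at day 45 and 0.450 to 1.17 in the knockout, and reached 2.31 at day 100. Ccne2, the second cyclin E, ran from 0.278 to 0.392 at day 0 and 0.964 to 1.43 at day 45. In knockouts A and B it was at 0.0390 and 0.0670, below any other library, with about 2.77 fragments behind the lower value by the estimated depth. In the fit without the filter the log2 differences at day 45 were 0.79 ± 0.23, adjusted p = 0.032 for Foxm1 and 0.66 ± 0.20, adjusted p = 0.032 for Ccne2. Foxm1 also passed in that fit at days 100 and 200 (1.11 ± 0.26, adjusted p = 0.0081) and in the knockout (0.75 ± 0.23, adjusted p = 0.042).

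Most DNA replication genes rose at day 45. In the main test 10 of 13 tested were higher at day 45, 11 of 13 at days 100 and 200 and 3 of 13 in the knockout. Over all tested genes 23.7%, 28.4% and 19.3% were higher, so the knockout count is near the background. Without the filter 10 and 11 of 14 were higher at the first 2, against 22% and 30.3% of all genes. In both of these comparisons Rrm1 was lost without the filter and Cdc6 was gained. The 6 Mcm proteins form the ring-shaped helicase that unwinds DNA. Mcm2 was at 1.03, 0.835 and 1.61 FPKM at day 0, 1.93, 1.48 and 2.08 at day 21, 4.27, 7.82 and 5.71 at day 45, 6.42 at day 100, 3.31 at day 200 and 3.45, 4.3 and 2.31 in the knockouts. Mcm2 in each day 45 mouse was more than any mouse of day 0 or day 21 had, and day 21 overlapped day 0. Mcm2 was 5.12-fold the day 0 mean at day 45, a log2 difference of 1.67 ± 0.26, adjusted p = 0.001, and it also rose at days 100 and 200 (1.41 ± 0.29, adjusted p = 0.0027) and in the knockout (1.00 ± 0.26, adjusted p = 0.012).

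Mcm3 was at 1.92, 1.78 and 2.65 FPKM at day 0, 3.76, 3.5 and 4.52 at day 21, 5.63, 9.1 and 7.38 at day 45, 8.1 at day 100, 5.0 at day 200 and 5.21, 5.0 and 2.48 in the knockouts. Mcm3 was above day 0 in all floxed mice after Cre, and knockout C fell inside the day 0 range. Mcm4 was at 1.52, 1.24 and 2.27 FPKM at day 0, 2.31, 1.98 and 2.32 at day 21, 3.84, 6.31 and 4.86 at day 45, 5.97 at day 100, 2.56 at day 200 and 1.55, 2.09 and 1.86 in the knockouts. Mcm4 in the knockout overlapped day 0, while day 45 and day 100 stood clear of it. Mcm5 was at 0.995, 0.814 and 1.93 FPKM at day 0, 2.1, 1.9 and 2.88 at day 21, 5.0, 7.57 and 5.34 at day 45, 7.77 at day 100, 4.18 at day 200 and 4.14, 4.32 and 1.21 in the knockouts. For Mcm5, knockout C lay within the day 0 range and knockouts A and B lay above it.

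Mcm6 was at 2.92, 1.64 and 3.76 FPKM at day 0, 3.77, 3.75 and 4.63 at day 21, 6.72, 12.4 and 9.6 at day 45, 16.4 at day 100, 8.23 at day 200 and 3.38, 3.49 and 0.998 in the knockouts. Mcm6 reached its top at day 100, and knockout C was the lowest of the 14 livers. Mcm7 ran from 3.00 to 3.41 FPKM at day 0, 2.11 to 2.55 at day 21, 3.73 to 5.28 at day 45 and 2.51 to 5.71 in the knockouts, with 7.00 at day 100 and 3.80 at day 200. Mcm7 was an exception among the helicase genes, since each day 21 mouse lay below each day 0 mouse and no comparison with day 0 passed (day 45 log2 difference 0.40 ± 0.24, adjusted p = 0.25). The other 5 rose at day 45, by 1.16 (Mcm4) to 1.67 (Mcm2) on the log2 scale.

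The genes that load the helicase and complete it were lower in level. Cdt1 was at 0.959, 0.694 and 0.797 FPKM at day 0, 1.26, 0.857 and 1.06 at day 21, 2.16, 3.46 and 3.33 at day 45, 3.2 at day 100, 1.71 at day 200 and 2.84, 3.13 and 0.931 in the knockouts. Cdt1, the licensing factor that brings the helicase to origins, was above the day 0 range in all day 45 mice and in knockouts A and B. Gins2 was at 0.657, 0.193 and 1.2 FPKM at day 0, 1.2, 0.906 and 0.838 at day 21, 2.62, 5.1 and 4.07 at day 45, 6.33 at day 100, 3.95 at day 200 and 1.84, 3.1 and 0.685 in the knockouts. Gins2, a subunit of the active helicase, was lowest in day 0 B and highest at day 100. Cdt1 rose by 1.12 ± 0.27 (adjusted p = 0.009) and Gins2 by 1.56 ± 0.32 (adjusted p = 0.0039) on the log2 scale at day 45. Cdt1 was also higher in the knockout (0.79 ± 0.27, adjusted p = 0.041). That call was lost in several fits, among them those without the filter, day 0 B or knockout B.

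Cdc6, which loads the helicase with Cdt1, was not tested with the filter. It ran from 0.0210 to 0.0960 FPKM at day 0, 0.102 to 0.254 at day 21, 0.386 to 0.694 at day 45 and 0.161 to 0.249 in the knockout, with 0.865 at day 100 and 0.322 at day 200. Every mouse of the other groups lay above the uninjected mice, and about 5.54 fragments stood behind the lowest value. Without the filter its log2 difference was 0.53 ± 0.11, adjusted p = 0.0074 at day 45.

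Pcna, the sliding clamp of DNA polymerases and also a repair protein, had a high resting level and a small rise. Pcna was at 5.8, 8.37 and 9.2 FPKM at day 0, 8.28, 5.95 and 8.18 at day 21, 12.2, 14.3 and 14.4 at day 45, 14.5 at day 100, 13.5 at day 200 and 4.71, 5.57 and 5.81 in the knockouts. Day 21 overlapped day 0, each day 45 mouse lay above both, knockouts A and B lay below all uninjected mice, and knockout C was level with day 0 A. Pcna rose 1.75-fold at day 45 (0.75 ± 0.18, adjusted p = 0.0076) and by 0.79 ± 0.20 (adjusted p = 0.0086) at days 100 and 200. In the knockout its mean was 0.689-fold the day 0 mean (-0.45 ± 0.18, adjusted p = 0.064).

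The genes of nucleotide supply were uneven. Rrm1 was at 3.44, 3.83 and 5.31 FPKM at day 0, 5.08, 4.56 and 4.93 at day 21, 5.99, 7.75 and 6.78 at day 45, 8.88 at day 100, 5.38 at day 200 and 2.54, 2.58 and 3.95 in the knockouts. Rrm1, the large subunit of ribonucleotide reductase, was above day 0 in all 3 day 45 mice, and knockouts A and B had the lowest values of all. Rrm2 was at 1.81, 2.01 and 2.39 FPKM at day 0, 2.13, 2.31 and 5.47 at day 21, 3.27, 3.41 and 2.36 at day 45, 8.06 at day 100, 5.2 at day 200 and 2.97, 4.0 and 1.89 in the knockouts. Rrm2, the small subunit, was led by day 21 C, day 100 and day 200, and day 45 C was inside the day 0 range. Rrm1 rose at day 45 (0.60 ± 0.20, adjusted p = 0.041), whereas Rrm2 passed only at days 100 and 200 (1.29 ± 0.31, adjusted p = 0.0078). Tyms, thymidylate synthase, stayed between 1.67 and 2.94 FPKM in all 14 livers, and none of its comparisons with day 0 passed (day 45 log2 difference 0.12 ± 0.13, adjusted p = 0.55).

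Uhrf1 carries DNA methylation over to the new strand. Uhrf1 was at 0.093, 0.116 and 0.255 FPKM at day 0, 0.597, 0.498 and 0.829 at day 21, 1.47, 2.4 and 1.43 at day 45, 3.21 at day 100, 1.27 at day 200 and 1.0, 1.47 and 0.248 in the knockouts. All floxed mice after Cre lay above the uninjected mice, and knockout C did not. Uhrf1 was 11.4-fold the day 0 mean at day 45, the largest fold of the 40 genes there, from a low base (1.25 ± 0.27, adjusted p = 0.005). It reached the filter, at a mean of 1.06 FPKM, only with the mice in which it was high. Its day 45 call was kept without the filter.

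All 3 markers of S to G2 rose at day 45 and at days 100 and 200. Mki67 encodes the Ki-67 antigen used to count cycling cells. Mki67 was at 0.161, 0.202 and 0.858 FPKM at day 0, 1.21, 1.28 and 1.9 at day 21, 1.93, 3.38 and 2.02 at day 45, 6.32 at day 100, 1.81 at day 200 and 0.737, 1.11 and 0.427 in the knockouts. Day 0 C was above day 0 A and B, each floxed mouse after Cre was above all 3, and day 100 stood out. Mki67 was 6.0-fold the day 0 mean at day 45 (1.30 ± 0.32, adjusted p = 0.01) and rose at days 100 and 200 (1.72 ± 0.36, adjusted p = 0.0031). At day 21 the values did not overlap day 0, but the test did not pass (0.83 ± 0.32, adjusted p = 0.14). In the knockout only replicate B exceeded day 0 C (0.34 ± 0.32, adjusted p = 0.42).

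Top2a, the topoisomerase that untangles replicated chromosomes, had a like pattern of values. Top2a was at 0.191, 0.254 and 1.36 FPKM at day 0, 1.53, 1.89 and 2.76 at day 21, 2.65, 5.38 and 3.26 at day 45, 7.87 at day 100, 2.53 at day 200 and 0.869, 1.21 and 0.736 in the knockouts. As for Mki67, day 0 C exceeded the other uninjected mice and each floxed mouse after Cre exceeded day 0 C, while all 3 knockouts were below it. Its log2 difference was 0.99 ± 0.35, adjusted p = 0.11 at day 21, 1.61 ± 0.35, adjusted p = 0.0053 at day 45 and 1.88 ± 0.39, adjusted p = 0.0031 at days 100 and 200.

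Ccna2 encodes cyclin A2, which serves both S phase and entry into mitosis. Ccna2 was at 0.354, 0.243 and 1.26 FPKM at day 0, 1.09, 1.47 and 2.43 at day 21, 2.26, 4.67 and 2.65 at day 45, 8.15 at day 100, 2.85 at day 200 and 1.77, 1.82 and 0.929 in the knockouts. Day 21 A was under day 0 C, and each day 45 mouse was over it. Ccna2 rose at day 45 (1.38 ± 0.35, adjusted p = 0.011) and at days 100 and 200 (1.93 ± 0.39, adjusted p = 0.0026).

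**Figure D2:**
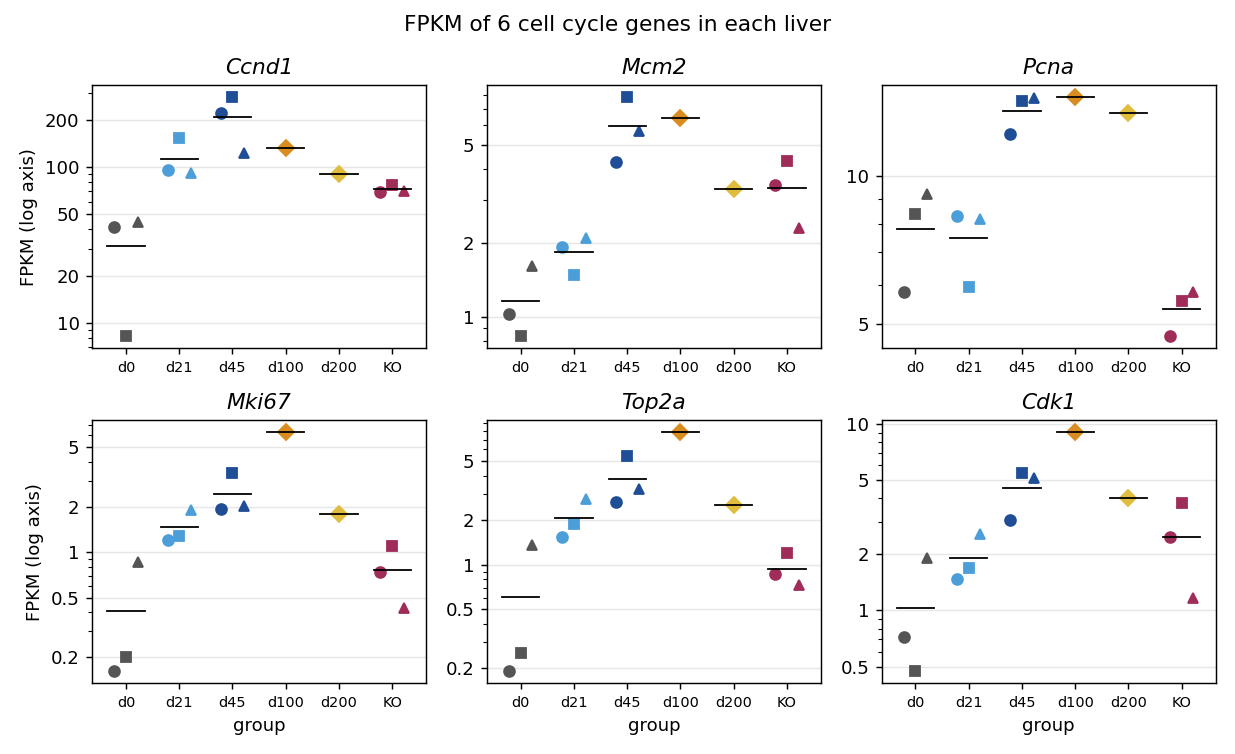
FPKM (log axis) of Mki67, Top2a, Ccnd1, Pcna, Cdk1 and Mcm2 in each liver, by group. Circles, squares and triangles are replicates A, B and C, diamonds are single mice and black lines are group means. Day 45 lies above day 0 in all 6 panels without overlap, and knockout Pcna lies low.

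The mitosis genes had the lowest resting levels, with a median over the 17 genes of 0.427 FPKM in the day 0 means against 1.83 for the replication genes. In the main test 11 of 13 tested were higher at day 45, 12 of 13 at days 100 and 200 and 2 of 13 in the knockout. Over all tested genes 23.7%, 28.4% and 19.3% were higher, so the knockout count is near the background. Without the filter 10 and 15 of 17 were higher at the first 2, against 22% and 30.3% of all genes. Birc5, Ccnb2 and Plk1 were then lost at day 45, Bub1 and Kif11 were gained in both, and Cenpf was gained at days 100 and 200. CDK1 is the kinase that starts mitosis with its B-type cyclins. Cdk1 was at 0.72, 0.471 and 1.9 FPKM at day 0, 1.48, 1.69 and 2.58 at day 21, 3.04, 5.45 and 5.13 at day 45, 9.06 at day 100, 4.03 at day 200 and 2.48, 3.78 and 1.17 in the knockouts. Each day 45 mouse lay above each uninjected mouse, and the 3 knockouts straddled day 0 C. Cdk1 was 4.40-fold the day 0 mean at day 45 (1.48 ± 0.35, adjusted p = 0.0085) and was also higher at days 100 and 200 (1.87 ± 0.39, adjusted p = 0.0034).

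Ccnb2 was at 0.554, 0.347 and 1.21 FPKM at day 0, 0.78, 1.02 and 1.94 at day 21, 2.16, 3.98 and 3.44 at day 45, 9.23 at day 100, 2.8 at day 200 and 2.98, 4.08 and 0.829 in the knockouts. Ccnb2, a mitotic cyclin, had its highest value at day 100, knockout A fell in the day 45 range and knockout B just above it. Ccnb1, the other B-type cyclin, ran from 0.0690 to 0.283 FPKM at day 0, 0.0800 to 0.466 at day 21, 0.361 to 0.850 at day 45 and 0.113 to 1.03 in the knockout, with 1.44 at day 100. It was too low for the main test, and without the filter its day 45 log2 difference of 0.45 ± 0.24, adjusted p = 0.2 did not pass. Ccnb2 rose at day 45 (1.31 ± 0.41, adjusted p = 0.034) and at days 100 and 200 (1.90 ± 0.46, adjusted p = 0.0078).

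The mitotic kinases rose at day 45 as well. Plk1 was at 0.151, 0.171 and 0.492 FPKM at day 0, 0.498, 0.313 and 0.542 at day 21, 0.942, 1.94 and 1.34 at day 45, 3.33 at day 100, 1.1 at day 200 and 1.02, 1.89 and 0.283 in the knockouts. Plk1, a kinase of spindle assembly, had each day 45 mouse over day 0 C. Aurka was at 0.529, 0.475 and 1.05 FPKM at day 0, 0.747, 0.819 and 1.04 at day 21, 1.47, 3.09 and 2.59 at day 45, 4.27 at day 100, 1.49 at day 200 and 1.38, 2.25 and 0.626 in the knockouts. Aurka, the kinase of spindle poles, overlapped day 0 at day 21 and was clear of it at day 45. Aurkb was at 0.108, 0.156 and 0.52 FPKM at day 0, 0.928, 0.614 and 1.24 at day 21, 1.21, 2.18 and 1.46 at day 45, 3.85 at day 100, 1.36 at day 200 and 0.955, 1.69 and 0.31 in the knockouts. Aurkb, the kinase of the chromosomal passenger complex, was above day 0 already at day 21 in all 3 mice.

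Birc5, or survivin, belongs to the same passenger complex. Birc5 was at 0.766, 0.45 and 1.9 FPKM at day 0, 1.72, 1.38 and 3.15 at day 21, 2.78, 5.43 and 3.98 at day 45, 12.1 at day 100, 4.51 at day 200 and 5.92, 6.03 and 1.2 in the knockouts. Day 100 had the most, knockouts A and B exceeded each day 45 mouse, and knockout C was in the day 0 range. Birc5 was higher at day 45 (1.34 ± 0.46, adjusted p = 0.049), at days 100 and 200 (2.13 ± 0.52, adjusted p = 0.0079) and in the knockout (1.28 ± 0.46, adjusted p = 0.049). Without the filter neither the day 45 nor the knockout call was kept. The knockout call was also lost in other fits, among them those without day 0 B or knockout B. At day 45 Plk1 rose by 0.91 ± 0.31 (adjusted p = 0.044), Aurka by 0.99 ± 0.31 (adjusted p = 0.03) and Aurkb by 1.05 ± 0.30 (adjusted p = 0.021) on the log2 scale.

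The checkpoint genes hold mitosis until chromosomes are attached. Bub1b was at 0.168, 0.222 and 0.689 FPKM at day 0, 0.88, 0.709 and 1.31 at day 21, 1.2, 2.09 and 1.57 at day 45, 3.17 at day 100, 1.68 at day 200 and 0.659, 0.764 and 0.451 in the knockouts. Bub1b, the checkpoint kinase-like protein BubR1, was above day 0 in all floxed mice after Cre. Bub1, its partner kinase, ran from 0.0170 to 0.226 FPKM at day 0 and 0.397 to 0.686 at day 45 and was at 1.21 at day 100, with about 3.19 fragments behind the lowest value. Cdc20 was at 0.442, 0.301 and 1.75 FPKM at day 0, 0.798, 0.909 and 2.08 at day 21, 1.55, 4.56 and 3.77 at day 45, 10.1 at day 100, 2.95 at day 200 and 4.74, 7.37 and 1.18 in the knockouts. Cdc20, which activates the ligase that ends metaphase, was highest at day 100 and next in knockouts B and A, and day 45 A lay under day 0 C. Bub1b rose at day 45 (0.95 ± 0.21, adjusted p = 0.0061). Cdc20 did not pass at day 45 (1.24 ± 0.52, adjusted p = 0.1). It did so at days 100 and 200 (1.94 ± 0.58, adjusted p = 0.023) and in the knockout (1.45 ± 0.52, adjusted p = 0.049). This knockout call was lost in several fits, among them those without the filter, day 0 B or knockout B.

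Genes of the spindle and of cytokinesis came next. Kif20a was at 0.268, 0.332 and 1.29 FPKM at day 0, 0.818, 0.915 and 1.33 at day 21, 1.4, 3.1 and 2.48 at day 45, 7.01 at day 100, 2.44 at day 200 and 1.46, 1.98 and 0.739 in the knockouts. Kif20a is a motor of the cleavage furrow, and all day 45 values exceeded day 0 C. Prc1 was at 0.192, 0.107 and 1.0 FPKM at day 0, 0.914, 1.04 and 1.47 at day 21, 2.03, 3.77 and 2.55 at day 45, 5.77 at day 100, 1.79 at day 200 and 1.04, 1.56 and 0.587 in the knockouts. Prc1 bundles the microtubules of the midzone, and day 0 C was above day 21 A. Nusap1 was at 0.159, 0.165 and 0.595 FPKM at day 0, 0.513, 0.822 and 1.1 at day 21, 1.54, 2.41 and 1.64 at day 45, 3.81 at day 100, 1.48 at day 200 and 0.738, 0.89 and 0.456 in the knockouts. Nusap1 binds spindle microtubules, and its day 45 values were all above day 0 and day 21.

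Tpx2 was at 0.151, 0.111 and 0.906 FPKM at day 0, 0.549, 0.687 and 1.23 at day 21, 1.26, 2.47 and 1.66 at day 45, 4.11 at day 100, 1.15 at day 200 and 0.881, 0.974 and 0.417 in the knockouts. Tpx2 carries Aurora A to the spindle, and day 21 overlapped day 0 while day 45 did not. At day 45 Kif20a rose by 1.05 ± 0.34 (adjusted p = 0.035), Prc1 by 1.43 ± 0.33 (adjusted p = 0.0069), Nusap1 by 1.14 ± 0.24 (adjusted p = 0.0049) and Tpx2 by 1.03 ± 0.31 (adjusted p = 0.029) on the log2 scale. Kif11, the motor that pushes spindle poles apart, was not tested with the filter. It ran from 0.297 to 0.673 FPKM at day 0 and 1.08 to 1.93 at day 45, and its log2 difference at day 45 without the filter was 0.77 ± 0.22, adjusted p = 0.026.

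The centromere genes were split. Cenpa, the histone of the centromere, had 2.93 to 10.0 FPKM over the 14 livers and no comparison with day 0 passed (day 45 0.58 ± 0.27, adjusted p = 0.14). Cenpf, a kinetochore protein, was at 0.0300 to 0.226 FPKM at day 0, 0.320 to 0.828 at day 45 and 1.26 at day 100, and without the filter its log2 difference was 0.46 ± 0.16, adjusted p = 0.063 at day 45 and 0.68 ± 0.18, adjusted p = 0.015 at days 100 and 200. Bub1 without the filter had 0.46 ± 0.14, adjusted p = 0.036 at day 45 and 0.73 ± 0.16, adjusted p = 0.0053 at days 100 and 200.

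Between the later times few differences passed. No cell cycle gene passed between day 45 and day 21, where 0.273% of all tested genes were called higher. At an unadjusted p of limma under 0.05 there were 18 of the 33, beside 1811 of all 11354 tested genes. The median log2 difference of the 33 was 0.72, against 0.15 over all tested genes. None passed between days 100 and 200 and day 45 either, where 0.194% of all tested genes were called higher. Here 1 of the 33 had an unadjusted p of limma under 0.05, beside 890 of all 11354 tested genes.

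The 2 late mice differed from each other for every gene. Day 100 was above day 200 for all 40 genes, by 1.08-fold (Pcna) to 3.66-fold (E2f8) with a median of 2.58-fold, whereas the median over tested genes was 1.08-fold and 65.0% of them were higher at day 100. The median was 1.85-fold for replication genes, 2.86-fold for mitosis genes, 3.11-fold for the S to G2 markers and 2.35-fold for the G1 and S entry regulators. This difference was not tested, and with 1 mouse at each time, time and mouse cannot be told apart. The marker sums differed between these 2 mice in both directions. The cholangiocyte sum was 2929 FPKM at day 100 and 1928 at day 200. The hepatocyte sum was lower at day 100 (14936 against 22856), and so were the macrophage (1361 against 1641), T and NK cell (22.5 against 34.5), B and plasma cell (90.4 against 118) and neutrophil (100.4 against 185.5) sums. Their part in the difference was not tested.

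The germline knockout gave a smaller and more uneven picture. The 7 higher genes were Ccnd1, Ccne1, Mcm2, Mcm3, Cdt1, Birc5 and Cdc20. As a count, 7 of 33 is near the background, since 19.3% of all tested genes were higher. Without the filter the 2 higher genes were Foxm1 and Mcm2, against 15.4% of all genes, so of the 7 calls only that of Mcm2 was kept. In the main test Mcm3 had a log2 difference of 0.71 ± 0.25, adjusted p = 0.043. Knockout C was the lowest of the 3 knockouts for 30 of the 40 genes. Without it 14 of 34 tested genes were higher and 3 were lower (E2f8, Pcna and Rrm1), but 31.7% of all genes tested were then higher and 30.7% lower. Without knockout B or day 0 B none was higher, against 9.37% and 11.9% of all genes. Without knockout A, day 0 A or day 0 C the number higher was 1, 2 and 4, against 11.8%, 15.6% and 14.6% of all genes. Of the 8 calls of the main fit 1 was kept without knockout A, and 1 with only the 2 groups. The replicate block kept 3, and so did the fit without day 0 A.

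Set against day 45, none of the 33 was higher in the knockout (1.21% of all tested genes were) and 5 were lower, where 8.23% of all tested genes were lower. These were Mcm4 (-1.07 ± 0.24, adjusted p = 0.022), Mcm6 (-1.60 ± 0.35, adjusted p = 0.02), Pcna (-1.20 ± 0.18, adjusted p = 0.0025), Rrm1 (-0.97 ± 0.20, adjusted p = 0.016) and Top2a (-1.27 ± 0.35, adjusted p = 0.044). Without the day 45 replicate B only Pcna remained, without knockout C there were 7 of 34, where 37.4% of all genes were lower, without day 45 C there was 1, and without knockout A or B there were 2. In these fits 1.43% (without day 45 B), 2.09%, 1.85% and 1.67% of all genes were lower. The knockout mice are not of the floxed line and have no injection in their labels, so the line, the vector and the age at loss cannot be told apart here.

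Transcript length moved with the knockout values. In knockouts A and B, genes of up to 1500 bases had a median log2 ratio to day 0 of 0.47 and 0.30, and genes above 5000 bases had -0.53 and -0.25. In knockout C they had -0.09 and 0.12. Among the cell cycle genes, the 20 shorter ones exceeded the 20 longer ones by 0.40, 0.49 and 0.09 in knockouts A, B and C, and were lower by 0.11 to 0.51 in the floxed mice after Cre. With the length trend of each library removed, an alternative chosen after seeing the data, 6 genes were higher and 2 lower (E2f8 and Pcna) in the knockout, Cdc20 being lost, where 21% of all tested genes were higher and 19.8% lower. Against day 45 Pcna and Rrm1 were lower in that fit, as were 2.14% of all genes. For the floxed mice 20 genes were higher at day 45, beside 15.4% of all genes. At days 100 and 200 there were 22, beside 16.7%.

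**Figure D3:**
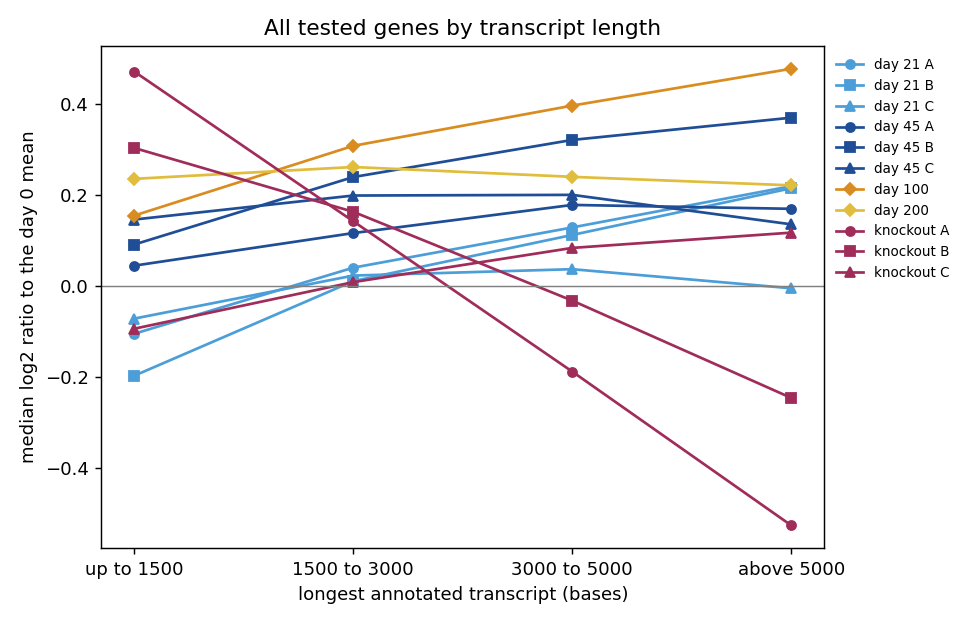
Median log2 ratio to the day 0 mean of all tested genes, in 4 groups by length of the longest annotated transcript (bases), with 1 line for each knockout library and each floxed library after Cre. The lines of knockouts A and B fall with length, from above 0 for short genes to below 0 for long ones, and that of knockout C does not.

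Replication and mitosis genes were then compared within each mouse, as the median log2 ratio to day 0 of the 14 replication genes minus that of the 17 mitosis genes. On the log2(FPKM + 1) scale the difference was 0.10, 0.06 and -0.09 in day 0 A, B and C, 0.15, -0.10 and -0.40 at day 21, and 0.14, 0.05 and 0.14 at day 45. It was -0.42 at day 100, -0.07 at day 200, and -0.17, -0.15 and -0.10 in the knockouts. All 3 day 45 mice were above 0, and all other mice after day 21 and all knockouts were below it.

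The pseudocount of 1 is large beside the mitosis genes at rest and compresses their ratios. Without a pseudocount the difference was 0.75, 0.69 and -0.55 at day 0, -0.15, -0.42 and -0.86 at day 21, -0.28, -0.41 and -0.33 at day 45, -1.58 at day 100, -0.68 at day 200, and -0.35, -0.62 and -0.23 in the knockouts. The sign at day 45 thus turned with the scale. With no pseudocount all floxed mice after Cre and all knockouts were below 0, though day 0 C was too, and only 4 of those 11 mice (day 21 C, day 100, day 200 and knockout B) were below day 0 C. Day 0 C had the mitosis genes at a median of 3.53 times the mean of day 0 A and B, and the replication genes at 1.55 times, so the day 0 mean of the mitosis genes rests largely on that mouse.

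In fold of the day 0 mean, the class medians were as follows, without a pseudocount. Replication genes were at 1.46, 1.23 and 1.52 times in day 21 A, B and C, and at 2.53, 4.26 and 3.47 times at day 45. They were at 3.91 times at day 100, 2.44 times at day 200, and 1.88, 2.14 and 0.986 times in the knockouts. Mitosis genes were at 1.62, 1.64 and 2.75 times at day 21, 3.07, 5.68 and 4.36 times at day 45, 11.7 times at day 100, 3.91 times at day 200, and 2.40, 3.28 and 1.15 times in the knockouts. The day 0 mice themselves ran from 0.794 to 1.31 times for replication and 0.493 to 1.92 times for mitosis. The ranges of the 2 classes overlapped at day 45, and they were farthest apart at day 100, where the mitosis genes were the higher.

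**Figure D4:**
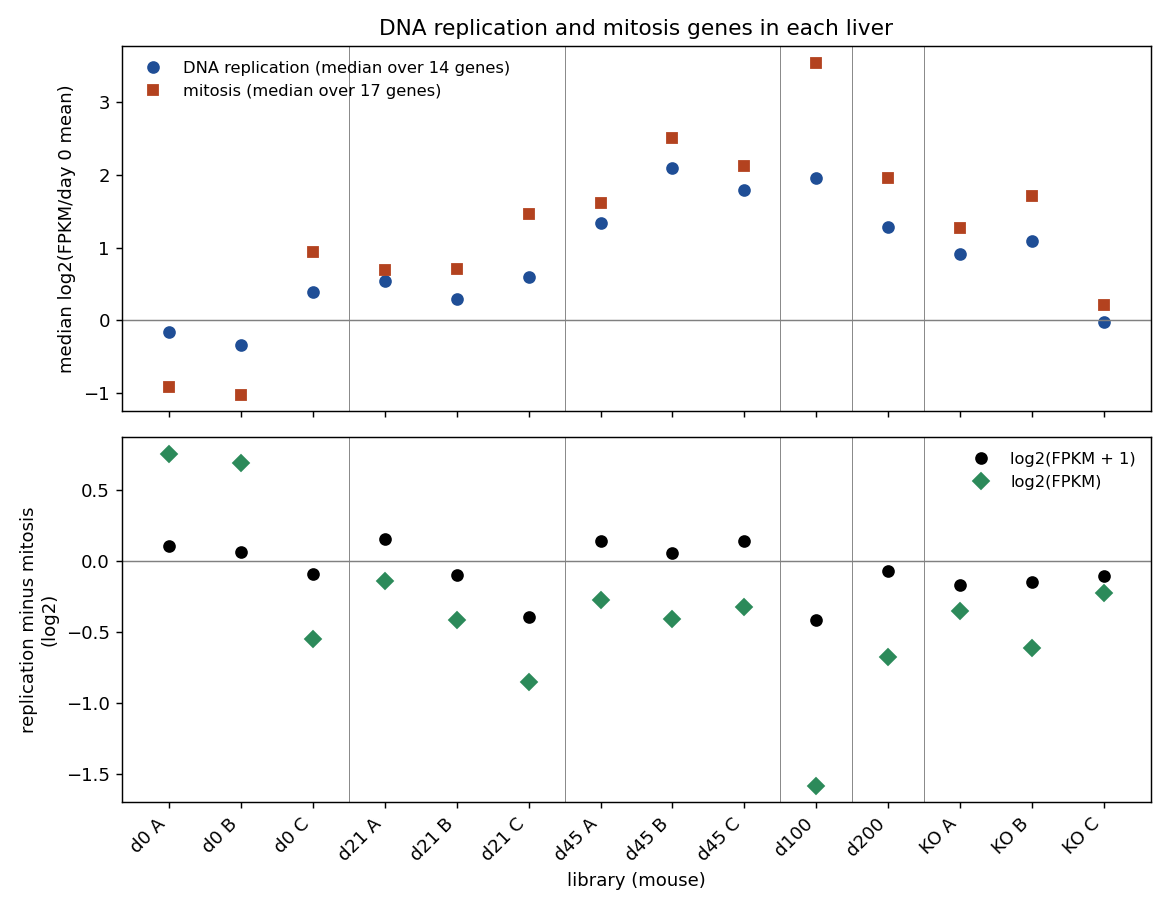
Upper panel, class medians of the log2 ratio of FPKM to the day 0 mean for the 14 replication genes (circles) and the 17 mitosis genes (squares) in each mouse. Lower panel, their difference with a pseudocount of 1 (black circles) and without one (green diamonds). Day 100 has the highest mitosis median and the most negative difference, and the day 0 mice spread widely without a pseudocount.

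Other genes of the same pathways, from lists that overlap none of the 40, are given by count. Of 25 other DNA replication genes 19 were tested, and 0, 5, 7 and 0 were higher at day 21, at day 45, at days 100 and 200 and in the knockout, where 3 were lower. Over all tested genes 6.2%, 23.7%, 28.4% and 19.3% were higher in these comparisons, so the counts of 5 and 7 are near the background, as are the 3 lower in the knockout beside 14.5% of all tested genes. Of 33 other mitosis genes 16 were tested, with 0, 9, 13 and 3 higher, and 1 lower in the knockout. The filter admits a low gene through the groups in which it is high, as it did for 1 of the 19 and 2 of the 16, whose mean is under 1 FPKM once 1 group is left out. Without the filter 0, 8, 10 and 0 of the 25 replication genes and 0, 21, 29 and 2 of the 33 mitosis genes were higher, against 3.94%, 22%, 30.3% and 15.4% of all genes. In that fit the G1 list had 0, 7, 9 and 3 of 18 higher and the inhibitors 3, 3, 8 and 3 of 14. None of these lists, nor the lists of G1 genes and of inhibitors described next, had a gene lower at day 21, at day 45 or at days 100 and 200. The median log2 difference at day 45 was 0.29 for the replication list, 0.99 for the mitosis list, 0.38 for the G1 list and 0.55 for the inhibitors, against 0.20 over all tested genes.

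Among the replication genes Chaf1a, a histone chaperone of the fork, rose by 1.06 ± 0.21 (adjusted p = 0.0034) on the log2 scale at day 45, Lig1, the ligase that joins Okazaki fragments, by 0.94 ± 0.31 (adjusted p = 0.041), Cdc45, the helicase cofactor, by 0.85 ± 0.21 (adjusted p = 0.011) and Chaf1b, the partner of Chaf1a, by 0.80 ± 0.26 (adjusted p = 0.041). Among the mitosis genes Ube2c, the E2 enzyme of the ligase that Cdc20 activates, rose by 1.56 ± 0.50 (adjusted p = 0.037), Ckap2 by 1.36 ± 0.31 (adjusted p = 0.0065), Kif22 by 1.19 ± 0.33 (adjusted p = 0.019) and Pbk by 1.14 ± 0.31 (adjusted p = 0.015). Ckap2 and Kif22 encode a microtubule-binding protein and a chromosome motor. Chaf1a reached the filter only with the day 45 mice, at a mean of 1.08 FPKM with them and 0.836 without. Without the filter its adjusted p was 0.0051, and Lig1, Chaf1b and Ube2c no longer passed (adjusted p = 0.059, 0.054 and 0.056 by limma).

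Of 18 other G1 cyclins, kinases and transcription factors 14 were tested, and 1, 3, 4 and 3 were higher at the 4 comparisons, with 1 lower in the knockout. Set against the 6.2%, 23.7%, 28.4% and 19.3% of all tested genes, these counts are near the background. Myc is a growth-driving transcription factor. Myc was at 0.988, 0.657 and 1.18 FPKM at day 0, 1.62, 2.5 and 3.66 at day 21, 7.93, 9.56 and 7.25 at day 45, 17.0 at day 100, 4.71 at day 200 and 5.53, 9.76 and 6.52 in the knockouts. Every mouse of the other groups was above the 3 uninjected mice, and the day 21 test did not pass. Its log2 difference was 0.86 ± 0.35, adjusted p = 0.18 at day 21, 2.25 ± 0.35, adjusted p = 0.0011 at day 45 and 2.07 ± 0.35, adjusted p = 0.0017 in the knockout. Ccnd2 was at 1.86, 2.28 and 3.11 FPKM at day 0, 4.77, 5.52 and 4.78 at day 21, 6.13, 9.99 and 5.23 at day 45, 11.7 at day 100, 8.36 at day 200 and 3.11, 4.14 and 4.19 in the knockouts. Ccnd2, the second D-type cyclin, rose already at day 21 (0.83 ± 0.22, adjusted p = 0.038) and at day 45 (1.22 ± 0.22, adjusted p = 0.002), while its knockout difference did not pass (0.50 ± 0.22, adjusted p = 0.09). Cdk4, the kinase partner of D-type cyclins, rose at day 45 (0.85 ± 0.19, adjusted p = 0.0059) and in the knockout (0.91 ± 0.19, adjusted p = 0.0047).

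Some brakes of the cycle were higher already at day 21. Of 14 inhibitors and pocket proteins 11 were tested, and 3, 3, 6 and 4 were higher at the 4 comparisons, where 6.2%, 23.7%, 28.4% and 19.3% of all tested genes were, so that the count at day 45 is near the background. Cdkn1a encodes p21, the CDK inhibitor that p53 induces. Cdkn1a was at 2.0, 1.36 and 4.34 FPKM at day 0, 32.7, 54.9 and 69.3 at day 21, 44.7, 52.4 and 36.4 at day 45, 17.5 at day 100, 19.9 at day 200 and 47.0, 47.2 and 10.1 in the knockouts. All other mice were above the uninjected mice, days 100 and 200 were below each day 21 and day 45 mouse, and knockout C was under knockouts A and B. Its log2 difference was 3.93 ± 0.50, adjusted p = 0.0029 at day 21 and 3.75 ± 0.50, adjusted p = 0.00055 at day 45.

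Ccng1, cyclin G1, is a p53 target and a known direct target of miR-122. Ccng1 was at 12.5, 12.2 and 13.9 FPKM at day 0, 61.9, 89.4 and 72.5 at day 21, 109, 91.6 and 90.7 at day 45, 43.3 at day 100, 30.1 at day 200 and 8.27, 9.32 and 33.5 in the knockouts. It was above day 0 in each floxed mouse after Cre, and knockouts A and B were below it while knockout C was above. Ccng1 rose at day 45 (2.82 ± 0.38, adjusted p = 0.00058) and not in the knockout (0.10 ± 0.38, adjusted p = 0.85), and the knockout was lower than day 45 (-2.72 ± 0.38, adjusted p = 0.0019). Wee1 was at 3.41, 1.17 and 1.39 FPKM at day 0, 7.56, 8.76 and 10.8 at day 21, 9.01, 8.15 and 13.0 at day 45, 9.95 at day 100, 6.36 at day 200 and 4.31, 7.87 and 4.35 in the knockouts. Wee1, the kinase that holds CDK1 inactive, was above the uninjected mice in all other mice, and rose at day 21 (1.81 ± 0.30, adjusted p = 0.0051), at day 45 (1.94 ± 0.30, adjusted p = 0.001) and in the knockout (1.15 ± 0.30, adjusted p = 0.013).

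**Figure D5:**
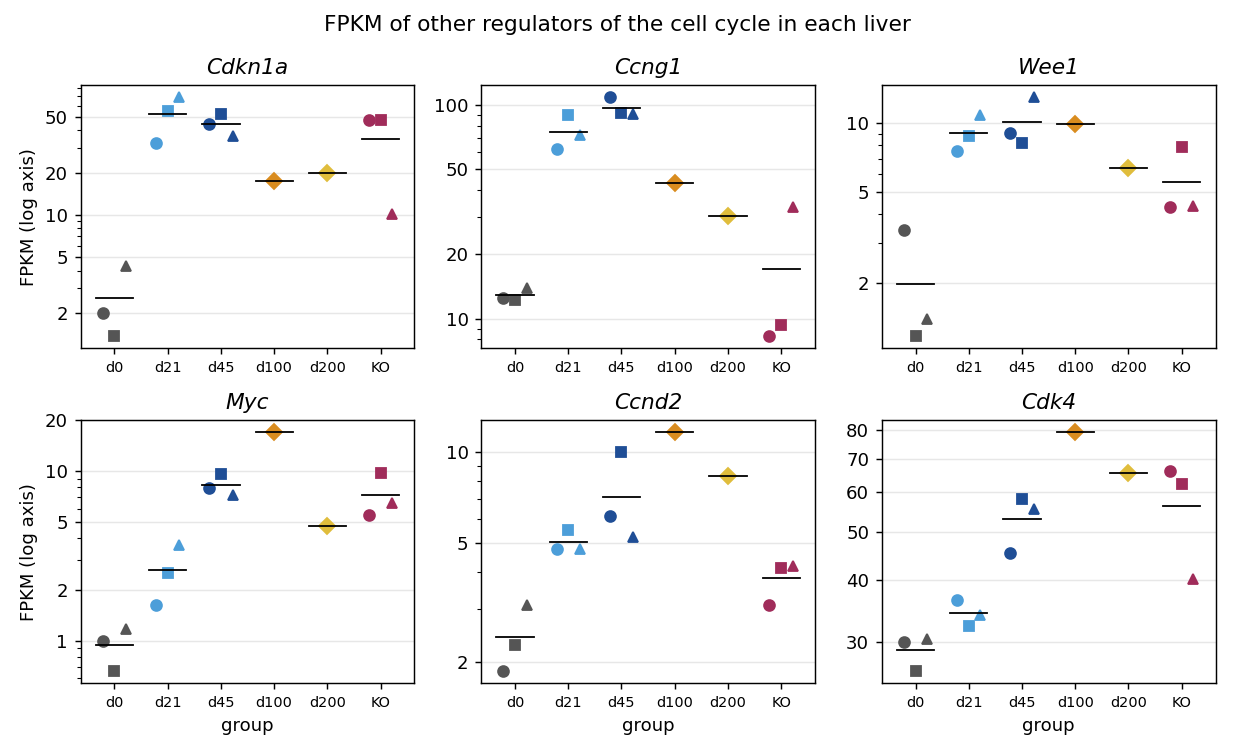
FPKM (log axis) of Cdkn1a, Ccng1, Wee1, Myc, Ccnd2 and Cdk4 in each liver by group, drawn as in the plot of Mki67, Top2a, Ccnd1, Pcna, Cdk1 and Mcm2. Cdkn1a, Ccng1 and Wee1 lie above day 0 without overlap at day 21, and Myc is highest at day 100.

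Markers of other liver cell types were summed in each library, and most of the sums were higher in all floxed mice after Cre than in uninjected mice. The summed level of the 10 macrophage markers, all in the table, was 366 to 664 FPKM at day 0, 946 to 1194 at day 21, 1355 to 1554 at day 45, 1361 to 1641 at days 100 and 200 and 466 to 1946 in the knockouts, where replicate C had the 466. The 8 T and NK cell markers, of which 7 were tested, summed to 3.43 to 6.99 FPKM at day 0, 22 to 47.7 at day 21, 15.9 to 24.5 at day 45 and 22.5 to 34.5 at days 100 and 200. The 6 B and plasma cell markers summed to 2.42 to 5.57 at day 0, 22.9 to 130 at day 21, 42.9 to 97.0 at day 45 and 90.4 to 118 at days 100 and 200. The 6 neutrophil markers summed to 4.38 to 17.9 at day 0, 40.1 to 130 at day 21, 41.7 to 80.0 at day 45 and 100.4 to 185.5 at days 100 and 200. In the knockouts these 3 sums ran from 8.57 to 26.1, 7.03 to 19.2 and 30.2 to 158. The 7 erythroid markers in the table, of a lineage that divides as it matures, overlapped day 0 at each time after Cre, with 29.3 to 154 FPKM at day 0, 48.7 to 202 at day 21, 63.9 to 145 at day 45 and 104.5 to 125 at days 100 and 200. In the knockouts the erythroid sum was 150.04 to 606.

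The 6 cholangiocyte markers summed to 46.2 to 59.4 FPKM at day 0, 138 to 204 at day 21, 407 to 1341 at day 45, 1928 to 2929 at days 100 and 200 and 554 to 805 in the knockouts. The 7 stellate cell and fibroblast markers summed to 132 to 181 at day 0, 269 to 285 at day 21, 347 to 544 at day 45, 503 to 509 at days 100 and 200 and 175 to 277 in the knockouts. The macrophage, cholangiocyte and stellate sums were thus higher at day 21 than at day 0 and higher again at day 45, without overlap. The T and NK cell, B and plasma cell, neutrophil, erythroid, endothelial and hepatocyte sums at day 45 overlapped those of day 21. The replication and mitosis class medians were higher in each day 45 mouse than in each day 21 mouse. A sum does not give the direction of its single markers. The 6 endothelial markers summed to 24.2 to 55.9 at day 0, 62.4 to 79.0 at day 21, 70.5 to 84.4 at day 45, 60.1 to 63.9 at days 100 and 200 and 30.6 to 43.4 in the knockouts. The hepatocyte sum was 26106 to 28881 at day 0, 24908 to 25824 at day 21, 19851 to 26289 at day 45 and 24271 to 32221 in the knockouts. The part of any of these cell types in the cell cycle values was not tested.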

How the data were processed

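Poly-A RNA of 14 livers, 1 library per animal, was sequenced after TruSeq preparation. The authors aligned the reads with TopHat to mm9 and deposited FPKM values from Cufflinks 2.2.1 with upper-quartile normalization and with rRNA, snoRNA and mitochondrial transcripts removed. The small RNA values are the deposited RPM (reads scaled to library size), mapped with Bowtie 0.12.7, and were used here only for the share of miR-122. All sample columns were mapped by their labels (0 left over).

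The 40 genes, the 4 pathway lists and the tests were chosen with earlier results of these data known. Rows of a symbol were summed, and log2(FPKM + 1) was fitted in 5 groups for genes whose mean reached 1 FPKM with limma 3.58.1 (trend) in R 4.3.3, with Benjamini-Hochberg adjustment within a comparison and a threshold of 0.05. Scripts were tested on simulated data. Python 3.11.15, numpy 2.4.6, pandas 2.3.3 and matplotlib 3.10.9 served the rest. Of the 40 genes, values of each mouse are printed for those called in a comparison with day 0, and for Mki67, Top2a, Ccnd1, Pcna, Cdk1 and Mcm2. Pathway genes are named where they had the largest changes (up to 4 a list) among those called at day 45, with Ccng1 added, and values of each mouse are given for some of them. FPKM keeps no read counts, so depth is an estimate and no counting interval is given.

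Samples with the same letter deviated together between days 21 and 45 (correlations of 0.272, 0.236 and 0.501) for all 3 letters. Every other pair of groups had at least 1 letter at 0.1 or less, though single letters there reached 0.319. The letters mark no shared animal. Alternatives covered the pseudocount, the filter, centring, the replicate block, the samples in the fit and leaving out each mouse.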

Additional observations from a re-analysis of the deposited data

Results flagged for a closer look

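The response of 5 cell cycle genes differed between the germline knockout and day 45 after Cre, by limma's test of the difference between these groups, which cancels the day 0 mice they share. Over all tested genes 8.23% were lower in the knockout than at day 45 (5 of the 33 here). Pcna was lower in the knockout by a log2 difference of -1.20 ± 0.18 (SE, adjusted p = 0.0025), from a mean of 13.6 FPKM at day 45 to 5.36, and each of the 3 knockout mice lay below each of the 3 day 45 mice. Mcm6, a helicase subunit, differed by -1.60 ± 0.35 (adjusted p = 0.020), Mcm4 by -1.07 ± 0.24 (adjusted p = 0.022), Rrm1 by -0.97 ± 0.20 (adjusted p = 0.016) and Top2a by -1.27 ± 0.35 (adjusted p = 0.044). The knockout and day 45 mice did not overlap for any of these 5 genes. These calls depend on the settings, since 2 of the 5 (Pcna and Rrm1) passed with the length trend removed, 1 with only the 2 groups in the fit, and 1 without day 45 B or without day 45 C. Among the other 28 tested genes 10 had an unadjusted p of limma under 0.05. Over all 11354 tested genes 4128 had, so this count is near the background.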

How the results depend on the processing

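Over 79 results of single genes and 1260 alternative values, 1043 kept their direction and their side of the threshold. A further 208 lost the call and 6 gained it. In 3 the direction turned with no call in either fit, and none turned in direction where either fit had a call. Of 232 alternative counts 194 stayed within 1.5 times the reported count. A count of 0 beside a reported 0 was taken as within it, and several reported counts were 0, so this number says little about the counts above 0. Removing the length trend, a term for Y-linked transcripts, keeping only the libraries with Xist, the class difference without a pseudocount or by summed FPKM, a pseudocount of 0.1 without a filter, and the 2-group block were chosen after seeing the data. Unless given below, the cause of a change was not tested.

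Shares in brackets are those of all genes tested in the same fit. At day 21 the count of 1 higher gene became 3 with a pseudocount of 0.1 (7.98%). It was 0 without a filter (3.94%), 0 with the replicate block (3.42%) and 0 to 1 when a mouse was left out (1.7% to 4.56%). With the replicate block 20 of 27 tested genes were higher at day 45 (20% of all genes). As without the block, none passed between days 21 and 45, where the letters deviate together. At day 45 leaving out a mouse gave 16 to 26 (14.2% to 22% of all genes). For day 45 against day 21 it gave 0 to 1 (0% to 1.61%). At days 100 and 200 leaving out a day 0 mouse gave 25 to 29 (23% to 24.7%). In the knockout the 7 of 33 higher, beside 19.3% of all genes, became 2 of 40 without a filter (15.4%). They became 2 of 27 with the replicate block (15.6%) and 1 of 23 with only these 2 groups in the fit (7.03%). Libraries with Xist gave 11 of 34 (28.8%), and leaving out a mouse gave 0 to 14 (9.37% to 31.7%). The 1 lower in the knockout became 0 without a filter (8.33% of all genes lower), with only the 2 groups (2.51%) and in libraries with Xist (28.6%). It became 2 with median centring (17.2%) and with the length trend removed (19.8%). Leaving out a mouse gave 0 to 3 (4.92% to 30.7%). Against day 45 the 5 lower became 8 with a minimum mean of 0.1 FPKM (8.87% of all genes lower). They became 2 with the length trend removed (2.14%), 1 with only the 2 groups (0.35%) and 1 to 7 with a mouse left out (1.43% to 37.4%).

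The mean of replication minus mitosis was -0.11 at day 21, 0.11 at day 45, -0.25 at days 100 and 200 and -0.14 in the knockout. Without a pseudocount it was -0.47, -0.34, -1.13 and -0.40. With a pseudocount of 0.1 it was -0.17 at day 45, -0.83 at days 100 and 200 and -0.39 in the knockout. From summed FPKM these 3 were -0.46, -0.90 and -0.75. A mean over genes gave 0.045 at day 45, and genes whose mean reached 1 FPKM gave -0.19 in the knockout. Leaving out a day 0 mouse gave -0.19 to -0.04 at day 21, -0.0031 to 0.20 at day 45, -0.29 to -0.18 at days 100 and 200 and -0.27 to -0.052 in the knockout. The lowest day 45 value came without day 0 C. Median centring leaves this difference as it is by construction. With 3 mice a group, and 7 of the 40 genes under the mean of 1 FPKM, differences in the lowest genes are limited by few fragments.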
